A study of Mus musculus with 6 samples.

Results

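The antioxidant and glutathione genes are the enzymes that make, use and recycle the thiol glutathione, the peroxiredoxins and thioredoxins, the superoxide dismutases and catalase, a few quinone, haem and cytochrome b5 redox enzymes, and the transcription factor Nfe2l2 with its inhibitor Keap1. The rule for members used gene symbols, and no measured value other than a value on 3 or more of the 6 arrays in the authors' table. It was set with earlier results of these data known. The symbols matched 56 of 23473 probes. A probe for Gstt4 had a value on 1 array and was left out, whereas all 55 other probes had values on all 6 arrays, which gave 54 of the 19321 named genes on the array. Gpx1, Prdx5, Prdx6 and Gstp1 were not analysed here.

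RNA was measured in cultured cortical astrocytes of newborn (P0) C57BL/6J mice homozygous for a floxed allele of Chd7, which encodes a chromatin remodelling helicase. Control cultures received a control lentivirus (3 arrays) and Cre cultures a Cre lentivirus (3 arrays). Cells were harvested 3 days after infection. Every culture carried the floxed alleles and grew with 10% serum, FGF2, EGF and B-27, so Cre itself and the loss of Chd7 cannot be told apart between the groups. The labels name neither the promoter that drives Cre nor what the control virus carries, and do not say whether replicates came from separate cultures or animals. P-values therefore reflect only how far these samples scatter, and that scatter may be technical. The study asked how lowering Chd7 alters expression in astrocytes.

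Astrocytes are the main source of glutathione in the brain and supply its precursors to neurons. Glutamate cysteine ligase, a dimer of Gclc and Gclm, and glutathione synthetase build the tripeptide, glutathione peroxidases and S-transferases spend it on peroxides and electrophiles, and glutathione reductase restores it with NADPH. Under oxidative or electrophilic stress the adaptor KEAP1 stops marking NRF2, the product of Nfe2l2, for degradation, and NRF2 then binds antioxidant response elements near many of these genes.

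Every sample had a 1-colour array to itself, and precision is limited by having 3 arrays per group. Levels are log2 intensities after correction against blank spots and quantile normalisation, and a difference is the Cre mean minus the control mean on that scale, which understates the change of dim genes. Between 82.8% and 87.0% of probes stood above background on Cre arrays and between 87.4% and 90.7% on control arrays. The brighter Chd7 probe read 6.92, 7.49 and 6.95 in control cultures and 6.00, 5.97 and 6.01 in Cre cultures, a difference of -1.13 (SE 0.16, limma adjusted p = 0.405 over all probes), and the dimmer probe differed by -0.11 (SE 0.06). The sources used here do not say where these probes lie against the floxed part. Astrocyte markers were present: Slc1a3 ranged from 919 to 1919 and Aqp4 from 923 to 1123 in the authors' values, while Gfap was lower at 65 to 137 and Gjb6 lay near the blanks at 2 to 5. Both microglia and fibroblast markers were detected too.

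To show the sequence in front of the genes on which the results turn, RefSeq promoter windows of GRCm38.p6, from 250 bases before to 50 bases after a gene's start, were searched on both strands for the antioxidant response element core TGACNNNGC. The core takes in the AP-1 site TGACTCA where the N bases read TCA. Cyb5r1, Gsta3 and Gstt1 are shown because they had the smallest p of the members, and Gclm, Txnrd1 and Keap1 because they stood high on 1 control array. Capitals mark the core, printed along the strand of the gene, and windows without capitals hold none. The windows lie at chr1:134405531-134405830 (plus strand, Cyb5r1), chr1:21240335-21240634 (plus, Gsta3), chr10:75797682-75797981 (minus, Gstt1), chr3:122245307-122245606 (plus, Gclm), chr10:82858956-82859255 (plus, Txnrd1) and chr9:21239283-21239582 (minus, Keap1).
Cyb5r1: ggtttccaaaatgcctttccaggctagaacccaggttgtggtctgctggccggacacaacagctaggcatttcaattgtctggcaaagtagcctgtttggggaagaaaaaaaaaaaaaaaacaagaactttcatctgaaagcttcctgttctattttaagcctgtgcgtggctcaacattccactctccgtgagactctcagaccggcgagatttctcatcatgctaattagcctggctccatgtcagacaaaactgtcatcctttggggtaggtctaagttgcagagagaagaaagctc
Gsta3: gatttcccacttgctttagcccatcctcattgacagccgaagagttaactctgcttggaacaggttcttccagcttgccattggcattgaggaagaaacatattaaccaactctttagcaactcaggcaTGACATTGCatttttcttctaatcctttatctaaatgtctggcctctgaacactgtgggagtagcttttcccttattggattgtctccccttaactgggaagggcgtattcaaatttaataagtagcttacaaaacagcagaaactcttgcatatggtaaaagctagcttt
Gstt1: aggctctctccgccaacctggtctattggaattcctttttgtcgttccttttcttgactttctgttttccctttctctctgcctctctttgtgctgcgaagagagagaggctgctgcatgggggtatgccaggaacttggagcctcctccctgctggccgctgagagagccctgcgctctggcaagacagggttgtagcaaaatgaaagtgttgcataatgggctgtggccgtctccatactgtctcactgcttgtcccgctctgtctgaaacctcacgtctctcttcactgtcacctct
Gclm: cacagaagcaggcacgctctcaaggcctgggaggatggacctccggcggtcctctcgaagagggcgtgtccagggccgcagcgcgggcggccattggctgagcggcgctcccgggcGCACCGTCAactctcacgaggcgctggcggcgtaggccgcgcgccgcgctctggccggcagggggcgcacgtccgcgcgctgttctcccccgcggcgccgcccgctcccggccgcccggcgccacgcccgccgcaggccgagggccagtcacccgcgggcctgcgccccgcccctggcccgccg
Txnrd1: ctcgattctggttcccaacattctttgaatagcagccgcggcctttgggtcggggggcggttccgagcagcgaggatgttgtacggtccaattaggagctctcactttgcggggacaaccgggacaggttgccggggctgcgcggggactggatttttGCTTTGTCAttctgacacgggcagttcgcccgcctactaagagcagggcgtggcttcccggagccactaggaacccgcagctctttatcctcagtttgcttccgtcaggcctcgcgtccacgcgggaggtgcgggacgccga
Keap1: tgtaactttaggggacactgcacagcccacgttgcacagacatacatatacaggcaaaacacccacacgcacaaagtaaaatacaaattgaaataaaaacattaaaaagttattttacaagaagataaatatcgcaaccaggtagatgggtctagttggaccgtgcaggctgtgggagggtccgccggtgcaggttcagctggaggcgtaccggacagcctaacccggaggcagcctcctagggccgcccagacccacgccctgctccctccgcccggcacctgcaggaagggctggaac

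The Gsta3 window holds the core as TGACATTGC on the strand of the gene, 121 bases before its start. In the Gclm window it lies on the opposite strand as TGACGGTGC, 134 bases before the start, and in the Txnrd1 window shown on the opposite strand as TGACAAAGC, 92 bases before the start. Txnrd1 has 3 windows in the table, and only 1 of them holds the core. No match was found in the windows of Cyb5r1, Gstt1 and Keap1, which says only that these letters are not in those windows. RefSeq windows were matched for 46 of the 54 genes, 60 windows in all. The core was in 10 of these windows (16.7%), against 12.4% of all 32851 windows of this length. The other windows that held it belonged to Gstm5, Gstm7, Mgst1, Prdx1, Srxn1, Sod1 and Nfe2l2, and the match at Prdx1 (TGACTCAGC) was the only 1 of the 10 that overlapped the AP-1 site. Genes with the core had a median Cre minus control difference of -0.02 with 5 of 10 higher, and matched genes without it a median of 0.05 with 26 of 36 higher.

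None of the 54 genes passed an adjusted p of 0.05 in the comparison of Cre with control cultures (limma, Benjamini-Hochberg over 20540 probes, of which 0% passed). At an unadjusted p under 0.05 there were 3 of 54 members (5.56%), beside 5.61% of all probes: Cyb5r1 and Gsta3 were lower and Gstt1 was higher in Cre cultures. The groups did not overlap for 5 of 54 (9.26%), beside 10.5% of all probes. Those were Cyb5r1, Gsta3 and Gpx5 on the lower side and Gstt1 and Gstt3 on the higher side. On the lower side that was 3 of 54 beside 5.31% of all probes, and on the higher side 2 of 54 beside 5.22%. These shares lie near the background. The count at an unadjusted p under 0.05 was 5 without control replicate 1, without control replicate 3 or without Cre replicate 1, and 6 without control replicate 2, beside 4.14% to 6.71% of all probes.

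By direction, 38 members were higher and 16 lower, beside 49.6% of all probes higher and 50.4% lower, and the median difference was 0.05 against -0.0006 over all probes. The higher Gpx2, Gpx6, Gsta2, Gstp3 and Txn1 and the lower Gpx5 lay under 16 units on every array in the authors' values. Their signs rest on little signal. With the scanner's local background 25 of 54 were higher, beside 62.5% of all probes, and 23 lay above the median of all probes. The authors' own values shifted all probes down, to a median of -0.08 with 20.4% of probes higher. There 18 of 54 members were higher (33.3%) and 28 lay above the median of all probes. With arrays scaled to a common median 29 were higher (53.7%), beside 44% of all probes. In size, 43 of 54 differences lay within 0.2, beside 90.4% of all probes. Those that exceeded 0.3 were Cyb5r1, Gstm1, Gstm2 and Gstm3, 4 of 54 beside 3.22% of all probes. With 3 arrays per group, an exact permutation test reaches p = 0.1 at best.

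**Figure D1:**
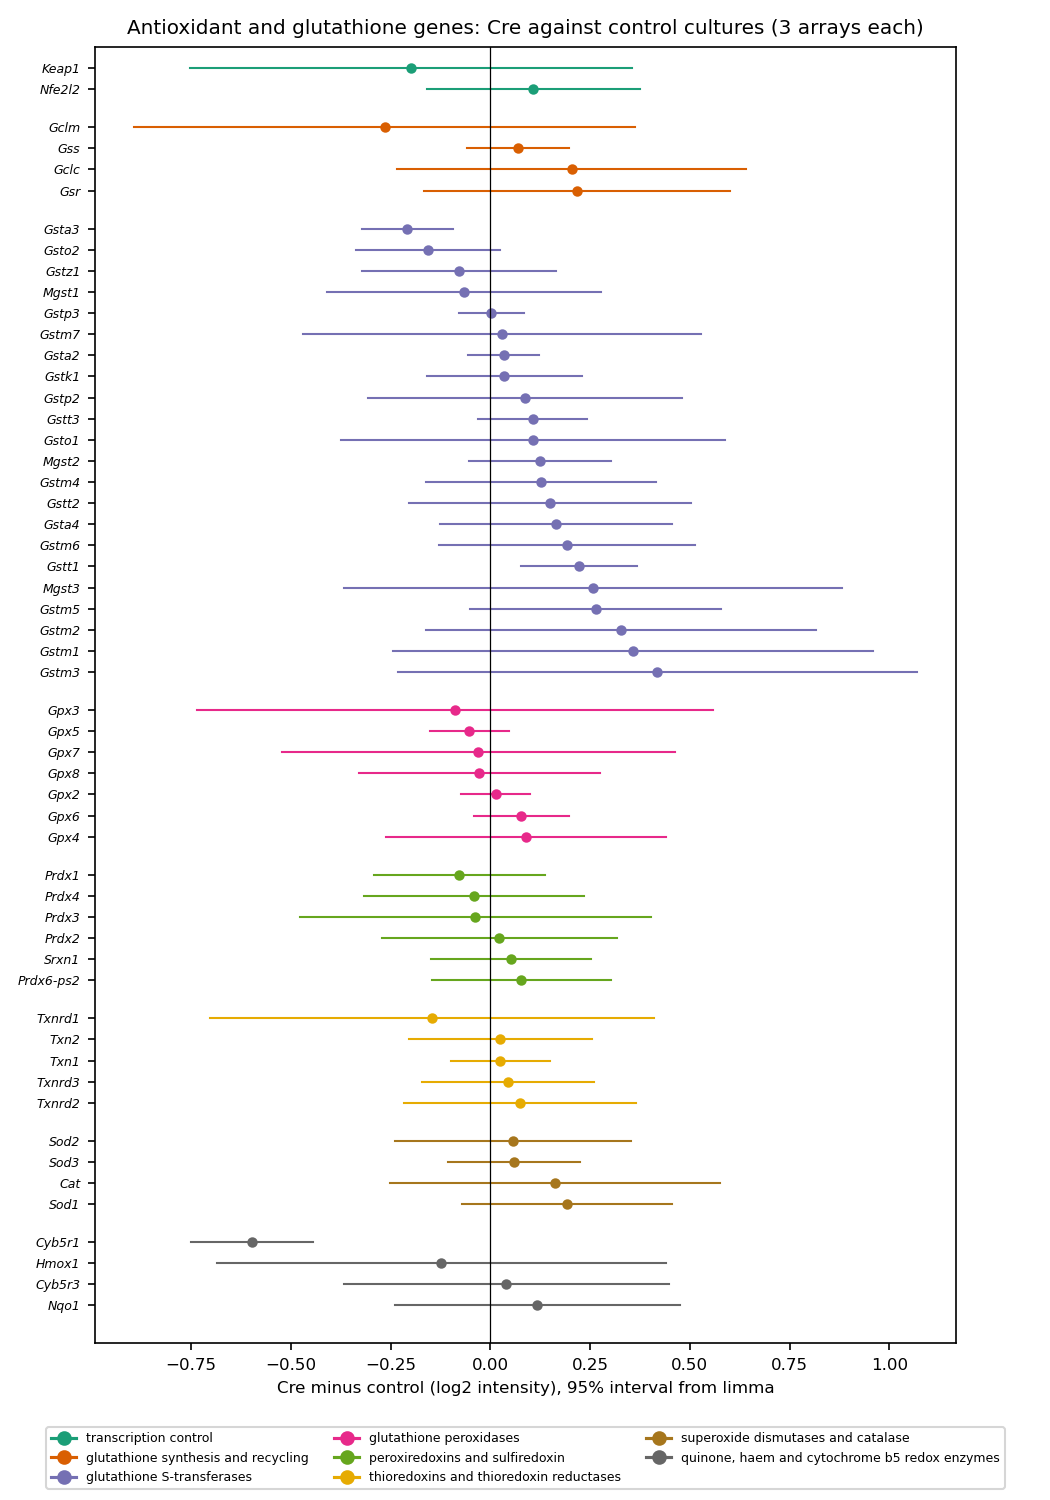
Cre minus control difference of each of the 54 genes in log2 intensity (points) with its 95% interval from limma (lines), grouped and coloured by role. The interval excludes 0 for Cyb5r1 (-0.60), Gsta3 (-0.21) and Gstt1 (0.22), and no gene passed after adjustment over all probes.

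Cyb5r1 showed the lowest difference of any member. It encodes a membrane-bound NADH-cytochrome b5 reductase. Its level was 9.36, 9.42 and 9.26 in control cultures and 8.71, 8.84 and 8.70 in Cre cultures. The groups lay apart by far more than the spread within either, as the lowest control exceeded the highest Cre array. The difference was -0.60 (SE 0.06, 95% interval -0.75 to -0.44, limma adjusted p = 0.405, unadjusted p = 0.000102), and exact permutation gave p = 0.1, the smallest it can give. Same-numbered pairs differed by -0.65, -0.58 and -0.56. In the authors' deposited values it read 349, 434 and 357 against 214, 208 and 215, so that the Cre mean was 55.9% of the control mean.

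With the scanner's local background subtracted the Cyb5r1 difference turned to 0.07. That local column amounted to 42.2%, 71.9% and 26.7% of the spot's own intensity on the 3 Cre arrays and to 36.9%, 18.2% and 17.9% on the controls. Its paralog Cyb5r3, which reduces cytochrome b5 at the endoplasmic reticulum and outer mitochondrial membrane, read 11.55, 12.01 and 11.63 in control and 11.99, 11.54 and 11.78 in Cre cultures. The groups overlapped and the difference was 0.04 (95% interval -0.37 to 0.45), with a sign that turned under several settings.

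Among 10 measured cytochrome b5 partners, reductases and desaturases, 2 were lower and 8 higher, with a median of 0.08. Only Cyb5r2, another reductase, had an unadjusted p under 0.05 (limma), as 5.61% of all probes did. Cyb5r2 was dim, at 6.12, 6.50 and 6.46 in control and 5.93, 6.07 and 6.04 in Cre cultures, and differed by -0.35 (SE 0.11, limma adjusted p = 0.769).

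Hmox1, which splits haem into biliverdin, iron and carbon monoxide, read 12.28, 12.86 and 12.30 in control and 12.14, 12.73 and 12.21 in Cre cultures. Both replicate 2 arrays stood above the others, and the groups overlapped. The difference was -0.12 (95% interval -0.69 to 0.44). Same-numbered pairs differed by -0.15, -0.14 and -0.09, with an unadjusted p of 0.0314 and a limma adjusted p of 0.487 with the replicate block. Leaving out control replicate 2, which also breaks its pair, gave 0.07. Nqo1, a quinone reductase widely used as a marker of NRF2 activity, was dim at 7.37, 6.88 and 7.18 against 7.43, 7.18 and 7.18, and differed by 0.12 (95% interval -0.24 to 0.47).

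The 22 glutathione S-transferases, which join glutathione to electrophiles, had 18 genes higher and 4 lower in Cre cultures, with a median difference of 0.12, and none passed after adjustment (limma). The split was 15 higher and 7 lower with median scaling and 13 and 9 with the local background. It was 12 and 10 with the authors' values, where 15 of 22 lay above the median of all probes. At an unadjusted p under 0.05 (limma) there was 1 lower and 1 higher, beside 2.85% and 2.77% of all probes. All 7 mu-class genes (Gstm1 to Gstm7) were higher, a direction that held for all 7 with plain blank subtraction and with cyclic loess, for 6 of 7 with the authors' values or median scaling, and for 4 of 7 with the local background. Mu-class genes are related paralogs, and since probe sequences are not in the sources used here, cross-hybridisation among them was not tested.

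Gsta3, an alpha-class transferase, was dim and lower in every Cre culture. It read 6.34, 6.30 and 6.40 in control and 6.15, 6.08 and 6.19 in Cre cultures, without overlap. The difference was -0.21 (SE 0.05, limma adjusted p = 0.587, unadjusted p = 0.00476). In the authors' deposited values, which have about the blank mean taken off, this was 19, 19 and 21 against 12, 9 and 13. The Cre mean there was 57.6% of the control mean, on a small signal over the blanks. With plain blank subtraction the difference was -0.62. With the local background the unadjusted p was 0.0543 (limma).

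Gstt1, a theta-class transferase, was higher in every Cre culture than in any control. Control cultures read 7.46, 7.31 and 7.48 and Cre cultures 7.69, 7.59 and 7.63, a difference of 0.22 (SE 0.06, limma adjusted p = 0.684, unadjusted p = 0.0104). In the authors' deposited values, however, 74, 74 and 79 stood against 93, 73 and 86, which overlap. The unadjusted p was 0.213 with those values and 0.0591 with median scaling (limma). Its theta-class relative Gstt3 differed by 0.11 (SE 0.06) without overlap, with Cre replicate 2 and control replicate 2 both at 7.55 after rounding.

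The mu-class genes Gstm1, Gstm2 and Gstm3 had the widest positive differences, and none had an unadjusted p under 0.05 without the block (limma). Gstm1 read 10.79, 11.39 and 10.54 in control and 11.26, 11.50 and 11.03 in Cre cultures, a difference of 0.36 (SE 0.24). Gstm3 followed the same arrays, at 9.91, 10.55 and 9.70 against 10.45, 10.78 and 10.18, a difference of 0.42 (SE 0.26). Gstm2 ran in another order, at 8.35, 7.87 and 7.82 against 8.65, 8.23 and 8.15, a difference of 0.33 (SE 0.20).

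In these 3 genes each Cre array exceeded the control array of the same number, while the groups overlapped. Same-numbered pairs differed by 0.47, 0.11 and 0.49 for Gstm1, by 0.30, 0.36 and 0.33 for Gstm2, and by 0.54, 0.23 and 0.48 for Gstm3. In a fit with a replicate block, by the numbers that both groups carry in the labels, the unadjusted p was 0.0210, 0.00106 and 0.00601, and the limma adjusted p stood at 0.443, 0.391 and 0.391. All 3 pairs were higher for 10 of 54 members and lower for 6, beside 14.6% and 15.5% of all probes. Over all members the block raised the count at an unadjusted p under 0.05 from 3 to 9 of 54, beside 9.34% of all probes. The added genes were Gstm1, Gstm2, Gstm3, Gsto2, Hmox1 and Cat, and 0 passed adjustment with the block (limma).

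Gsto2, an omega-class transferase, was lower in every pair, at 6.42, 6.62 and 6.57 against 6.29, 6.47 and 6.39, a difference of -0.16 (SE 0.07, unadjusted p = 0.0136 with the block). Gsta4, which clears the lipid peroxidation product 4-hydroxynonenal, read 11.16, 10.94 and 10.82 in control and 11.18, 10.97 and 11.27 in Cre cultures, with overlap. Its difference was 0.16 (95% interval -0.13 to 0.46). The remaining mu-class genes differed by 0.13 (Gstm4), 0.26 (Gstm5), 0.19 (Gstm6) and 0.03 (Gstm7). Other transferases ranged from -0.08 for Gstz1 and -0.07 for the microsomal Mgst1 to 0.26 for Mgst3, with Mgst2 at 0.12, Gstt2 at 0.15, Gsto1 at 0.11, Gstp2 at 0.09 and Gstk1 at 0.04. Gsta2 and Gstp3 lay under 16 units on every array in the authors' values.

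**Figure D2:**
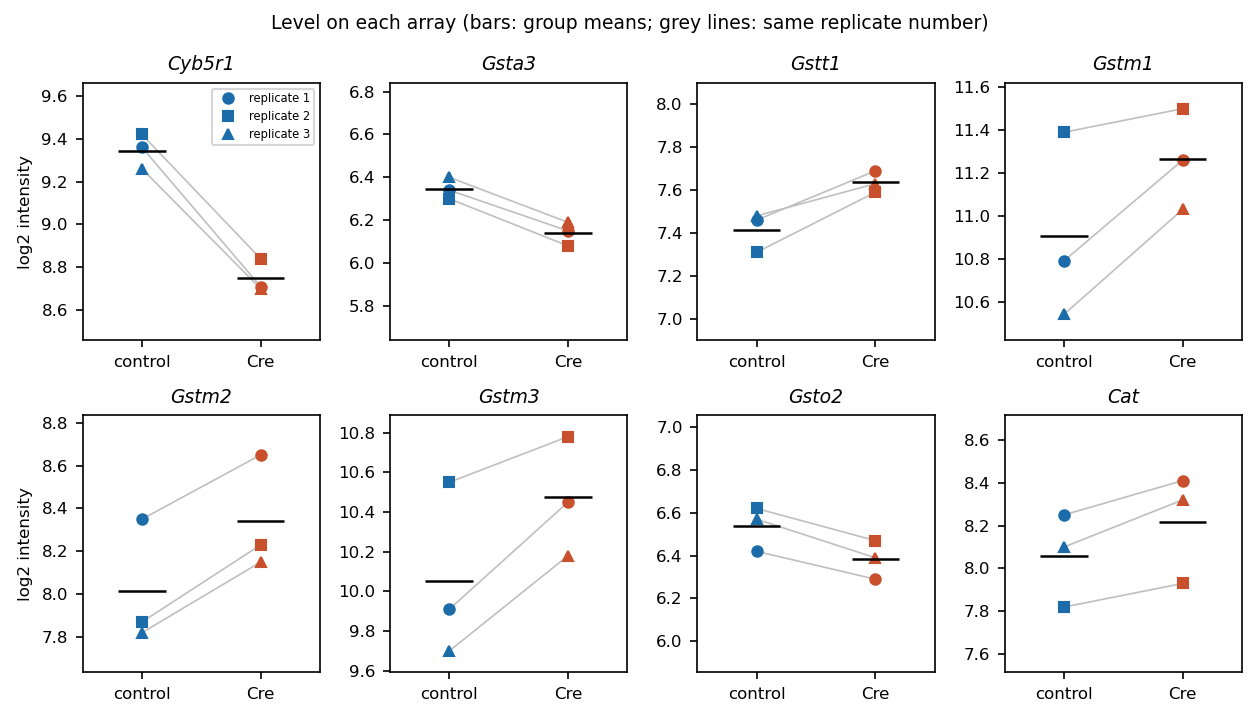
Level on each array in log2 intensity for 8 members, with control cultures in blue, Cre cultures in red, a marker shape per replicate number, grey lines joining equal numbers and bars at group means; each panel has its own axis, which does not start at 0. The groups are apart in Cyb5r1, Gsta3 and Gstt1, whereas in Gstm1, Gstm2, Gstm3, Gsto2 and Cat they overlap while all 3 pairs differ in the same direction.

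The enzymes of glutathione synthesis and recycling gave no common direction. Gclc, the catalytic subunit of glutamate cysteine ligase, read 8.73, 9.41 and 8.95 in control and 9.17, 9.21 and 9.33 in Cre cultures, a difference of 0.20 (95% interval -0.23 to 0.64). Gclm, the modifier subunit of the same enzyme, read 10.21, 11.05 and 10.16 against 10.12, 10.35 and 10.16, a difference of -0.26 (95% interval -0.89 to 0.36). In both genes control replicate 2 was the highest array, and the groups overlapped.

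Without control replicate 2 the Gclc difference was 0.39 and that of Gclm 0.02. Glutathione synthetase, Gss, read 8.61, 8.64 and 8.68 against 8.80, 8.69 and 8.64 and differed by 0.07 (95% interval -0.06 to 0.20). Glutathione reductase, Gsr, read 8.37, 8.13 and 8.45 against 8.34, 8.43 and 8.83, a difference of 0.22 (95% interval -0.17 to 0.60). For Gss and Gsr too the groups overlapped, with Gss among the tightest values of the set.

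In the control of transcription, Nfe2l2 and Keap1 did not differ beyond their spread. Nfe2l2, which encodes NRF2, read 10.75, 10.85 and 10.50 in control and 10.69, 10.89 and 10.85 in Cre cultures, a difference of 0.11 (95% interval -0.16 to 0.37). NRF2 is governed mainly through its protein, which arrays do not measure. Keap1 read 7.45, 8.19 and 7.38 against 7.53, 7.46 and 7.43, a difference of -0.20 (95% interval -0.75 to 0.35) that became 0.06 without control replicate 2. In Keap1 the other 5 arrays lay between 7.38 and 7.53.

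Control replicate 2 stood above every other array by more than 0.5 for 3 of 54 members, Gclm by 0.70, Keap1 by 0.66 and Txnrd1 by 0.51. Over all probes the same held for 0.759%, and for 0.00487% to 0.112% on each of the other arrays. These 3 genes were chosen after their values were seen, and no cause was tested. Control replicate 2 was the highest array for 15 of 54 members (27.8%), beside 22.3% of all probes.

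**Figure D3:**
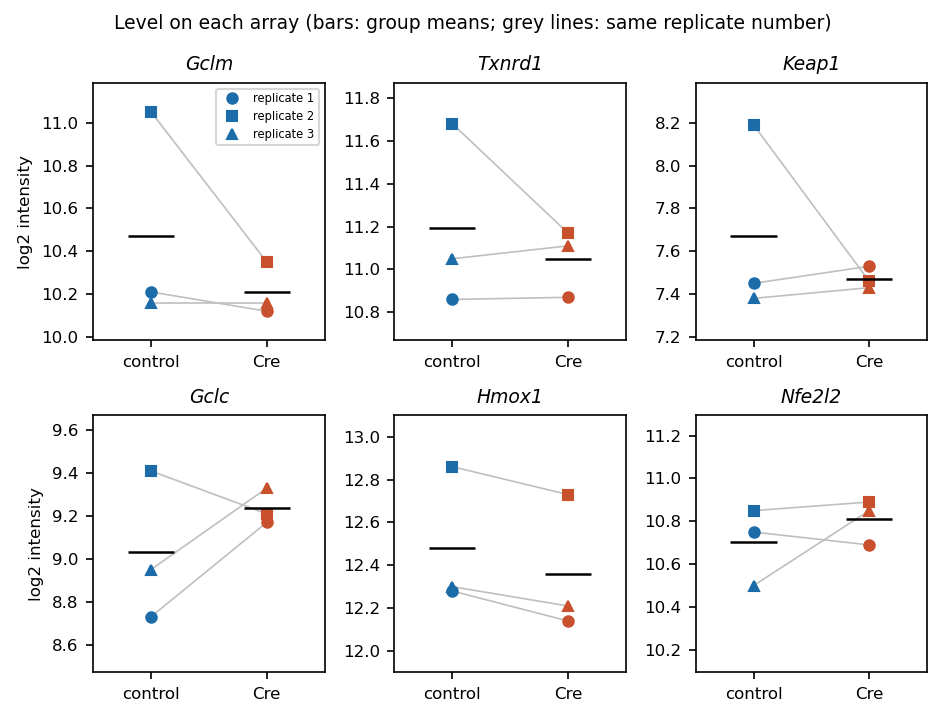
Level on each array in log2 intensity for Gclm, Txnrd1, Keap1, Gclc, Hmox1 and Nfe2l2, with control cultures in blue, Cre cultures in red, a marker shape per replicate number and bars at group means; each panel has its own axis, which does not start at 0. Control replicate 2 (square) stands alone in Gclm, Txnrd1 and Keap1 at 11.05, 11.68 and 8.19, above all 5 other arrays.

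Of 5 thioredoxins and thioredoxin reductases, which reduce protein disulfides with NADPH, 4 were higher and 1 lower, with a median of 0.03. Txnrd1, the cytosolic reductase, read 10.86, 11.68 and 11.05 in control and 10.87, 11.17 and 11.11 in Cre cultures. Its difference of -0.15 (95% interval -0.70 to 0.41) became 0.10 without control replicate 2. Mitochondrial Txn2 and Txnrd2 differed by 0.02 and 0.07, Txnrd3 by 0.04, and the probe named Txn1 by 0.03 at a level under 16 units on every array in the authors' values.

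The peroxiredoxins, which reduce peroxides through an active-site cysteine, differed little. Prdx1, a cytosolic peroxiredoxin, read 13.62, 13.36 and 13.32 in control and 13.37, 13.38 and 13.31 in Cre cultures, a difference of -0.08 (95% interval -0.29 to 0.14). Control replicate 1 alone was high and the other 5 arrays lay within 13.31 to 13.38. Prdx2 differed by 0.02, the mitochondrial Prdx3 by -0.04 and the endoplasmic reticulum form Prdx4 by -0.04.

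Prdx6-ps2, a pseudogene near-identical to Prdx6, differed by 0.08, and signal of its parent gene on that probe cannot be told apart. Srxn1, sulfiredoxin, which repairs overoxidised peroxiredoxins, read 10.13, 10.19 and 10.17 against 10.04, 10.30 and 10.31 on its brighter probe. That probe differed by 0.05 (95% interval -0.15 to 0.25) and the dimmer probe by -0.04, so the probes disagreed in sign within their error.

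The 7 glutathione peroxidases had 3 genes higher and 4 lower, all within 0.2, with a median of -0.03. Gpx4, which reduces lipid hydroperoxides in membranes, read 12.78, 12.95 and 13.28 in control and 13.23, 13.05 and 13.00 in Cre cultures. The groups overlapped, with the highest and the lowest array both controls, and the difference was 0.09 (95% interval -0.26 to 0.44). Secreted Gpx3 differed by -0.09, Gpx7 and Gpx8 of the secretory pathway by -0.03 and -0.03. Gpx2, Gpx5 and Gpx6 lay under 16 units on every array in the authors' values, and the separation of the groups in Gpx5, at a difference of -0.05, rests on 4, 4 and 4 units against 3, 3 and 1.

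The 3 superoxide dismutases, which turn superoxide into hydrogen peroxide, and catalase, which breaks hydrogen peroxide down in peroxisomes, were all higher in Cre cultures, with a median of 0.11 and none past the threshold, but 3 of 4 were higher under median scaling, 2 of 4 with the authors' values, where 3 lay above the median of all probes, and 1 of 4 with the local background. Catalase, Cat, read 8.25, 7.82 and 8.10 in control and 8.41, 7.93 and 8.32 in Cre cultures, a difference of 0.16 (SE 0.17). Each Cre array was higher than the control of its number (unadjusted p = 0.0181 with the block, limma adjusted p = 0.433).

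Cytosolic Sod1 read 8.33, 8.15 and 8.49 against 8.53, 8.63 and 8.38, a difference of 0.19 (95% interval -0.07 to 0.45). Mitochondrial Sod2 read 11.31, 11.26 and 11.00 against 11.06, 11.39 and 11.29, a difference of 0.06 (95% interval -0.24 to 0.35). In both the groups overlapped, and the pairs did not share a sign. Extracellular Sod3 was dim and differed by 0.06.

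**Figure D4:**
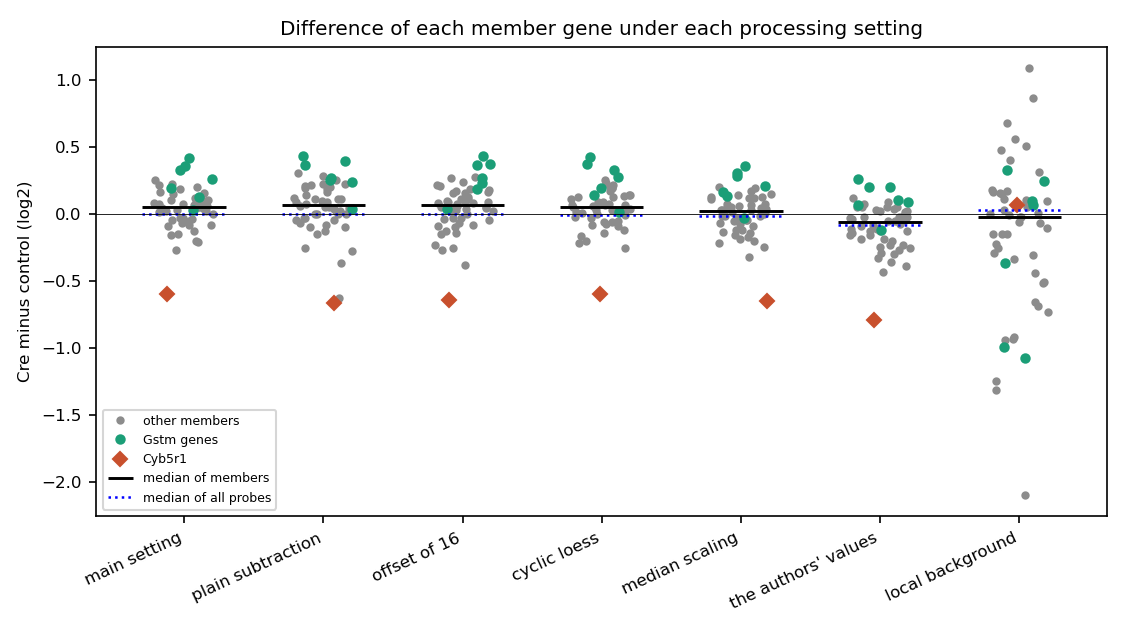
Cre minus control difference (log2) of each of the 54 genes (points, spread sideways for legibility) under 7 processing settings, with Cyb5r1 as red diamonds, mu-class transferases in green, solid lines at the median of the members and dotted lines at the median of all probes. Cyb5r1 is the lowest member under 6 settings and stands at 0.07 with the local background, and the members' median lies at -0.06 with the authors' values, where that of all probes lies at -0.08.

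Neighbouring pathways were described from lists of related genes, and no gene of any of these lists passed after adjustment (limma). Of 22 measured other NRF2 targets and partners, 11 were lower and 11 higher, with a median of -0.01. At an unadjusted p under 0.05 there were 5 lower and 4 higher, beside 2.85% and 2.77% of all probes. Blvra, biliverdin reductase, which acts on the product of haem oxygenase, read 8.16, 8.12 and 8.28 in control and 7.79, 7.87 and 7.80 in Cre cultures, a difference of -0.37 (SE 0.05, limma adjusted p = 0.405). Ephx1, microsomal epoxide hydrolase, differed the other way, at 12.22, 12.30 and 12.13 against 12.50, 12.67 and 12.42, a difference of 0.31 (SE 0.08, limma adjusted p = 0.641). In neither gene did the groups overlap.

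Among 16 measured genes of glutathione uptake, export and breakdown, 6 were lower and 10 higher, with a median of 0.01. There were 3 lower and 1 higher at an unadjusted p under 0.05 (limma), beside 2.85% and 2.77% of all probes. The lowest p on the lower side was that of Cth, which makes cysteine from cystathionine. Cth read 8.47, 8.46 and 8.72 in control and 7.60, 8.24 and 8.01 in Cre cultures, a difference of -0.61 (SE 0.18, limma adjusted p = 0.727). Glo1, which clears methylglyoxal with glutathione, differed by 0.37 (SE 0.13).

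Outside the rule for named genes, and chosen after their values were seen, are 2 further genes of cysteine and glutathione handling whose groups did not overlap. Among the 22 other NRF2 targets and partners the groups did not overlap for 5 lower and 3 higher genes. Among the 16 genes of glutathione uptake, export and breakdown it was 3 lower and 1 higher. Over all probes 5.31% were lower and 5.22% higher without overlap. Chac1, which degrades glutathione, read 9.04, 9.13 and 9.30 against 8.04, 8.85 and 8.57, a difference of -0.67 (SE 0.21, limma adjusted p = 0.766). Slc7a11, the cystine transporter and an NRF2 target, was dim and read 6.62, 6.63 and 6.92 against 6.15, 6.46 and 6.42, a difference of -0.38 (SE 0.12, limma adjusted p = 0.766). In Cth and Chac1 Cre replicate 1 was the lowest of the 6 arrays, and the same held for Slc7a11.

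Of 13 measured genes of NADPH supply 8 were higher and 5 lower, with a median of 0.15. The smallest p on the higher side belonged to Aldh1l1, a folate enzyme that is also an astrocyte marker, at 0.72 (SE 0.17, limma adjusted p = 0.623), and on the lower side to Mthfd2, a mitochondrial folate enzyme, at -0.44 (SE 0.22). Other thiol and methionine redox enzymes had 9 lower and 12 higher of 21, with a median of 0.08, Txnl1 at -0.24 (SE 0.08) and Selenok at 0.21 (SE 0.07). Oxidant producers had 10 lower and 3 higher of 13, with a median of -0.03, Maoa at -0.14 and the dim Xdh at 0.20 (SE 0.05). Of these 13 genes 7 lay under 16 units on every array in the authors' values, so their signs rest on little signal. Metal-binding genes had 4 lower and 5 higher of 9 with a median of 0.01, Hpx at -0.08 and the ferritin light chain Ftl1 at 0.21 (SE 0.10).

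Markers of cell types differed beside these genes. Of 14 astrocyte markers 13 were higher in Cre cultures, with a median of 0.24. Limma gave 5 of the 14 an unadjusted p below 0.05, each being higher, beside 2.77% of all probes on that side. None passed after adjustment. The groups were apart for 4 of the 14, each higher, beside 5.22% of all probes. Every same-numbered pair was higher for 8 of the 14, beside 14.6% of all probes. The summed authors' values of the astrocyte markers overlapped, at 5702 to 10365 in control and 7650 to 9603 in Cre cultures. Of 18 measured microglia and macrophage markers 14 were lower and 4 higher, with a median of -0.11 and a range of -0.88 to 0.48. At an unadjusted p under 0.05 (limma) there were 5 lower and 1 higher, beside 2.85% and 2.77% of all probes. C1qa had the smallest p on the lower side and Cd68 on the higher side. The sums of these markers did not overlap, at 699 to 1071 in control and 403 to 661 in Cre cultures. They are in the authors' values, where only 20.4% of all probes were higher in Cre cultures. Ptprc, P2ry12 and Mrc1 lay at or under 7 units on every array, Adgre1 and Mrc1 had empty cells on 2 Cre arrays, and Lyz2 made up the most at 243 to 545 in control and 77 to 274 in Cre cultures. Fibroblast and mural markers had 7 lower of 11 with a median of -0.10 and sums of 6848 to 11677 against 6261 to 10392.

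Markers of neurons (8 of 12 higher, sums 612 to 800 against 545 to 659), the oligodendrocyte lineage (4 of 10 higher, sums 1823 to 3346 against 1688 to 2516), endothelial cells (3 of 6 higher, sums 74 to 217 against 63 to 148) and ependymal cells (5 of 5 higher, sums 327 to 638 against 378 to 714) had medians between -0.02 and 0.07. The part of cell makeup in the differences of the antioxidant and glutathione genes was not tested. In bulk samples fewer cells of a type and less RNA per cell cannot be told apart.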

How the data were processed

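Aminoallyl RNA coupled to Cy5 was hybridised to 1-colour arrays, per the labels' protocols. The scanner files hold a median intensity and a local background intensity per spot, per the file headers, and the authors also deposited processed intensities. Set against the scanner files, each column of that table was the spot less about the blank mean, divided by 1 factor per array (1.44 to 1.94). Other steps and the genome build of the array are not given in the sources used here. The 23473 probes were named from the supplied platform annotation (20690 named, 2783 unnamed).

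Intensities were corrected by normexp against 2736 blank spots (offset 50), log2 transformed and quantile normalised in limma 3.58.1 (R 4.3.3). Probes above the blank mean by 2 SD on 3 or more of 6 arrays were kept (20540). Groups were compared with limma (lmFit, eBayes, two-sided, Benjamini-Hochberg over all kept probes, threshold 0.05). All 54 genes passed this filter, 53 of them on all 6 arrays. The brightest probe stood for a gene. The fit was also run on simulated data with independent noise and no replicate pairs. These arrays differ from that, so the run does not show how the fit performs on them. Summed marker values are sums of the authors' deposited intensities.

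Values in every array are given for members at an unadjusted p under 0.05 and for a fixed list of core enzymes and regulators. Gstm2, Gstm3 and Gsto2 lie outside that rule, and their values are given after the results were seen. Each related list gives its gene with the smallest p in each direction. The members, lists and tests were chosen with earlier results of these data known. Both groups carry replicate numbers 1 to 3. How arrays of equal number departed from their group means correlated at 0.498, 0.425 and 0.436. The numbers were therefore treated as pairs in the replicate block and the pair differences, though no label states a shared culture or day. The main fit, with its SEs, intervals and p-values, did not use the pairs. The alternatives were other background corrections, scalings and filters, the deposited values as log2(value + 16), the replicate block, all probes per gene and leaving out each array. Promoter windows came from RefSeq.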

Additional observations from a re-analysis of the deposited data

How the results depend on the processing

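Members past an adjusted p of 0.05 (limma) numbered 0 under every alternative run, the replicate block included, which changed no call after adjustment. The count at an unadjusted p under 0.05 (limma) was 9 with the replicate block, beside 9.34% of all probes. It was 2 with median scaling (beside 2.99%) and 4 with the authors' values (beside 9.40%). When 1 array was left out it was 3 to 6. Gstt1 lost its unadjusted call with median scaling and the authors' values, and Gsta3 and Cyb5r1 lost theirs with the local background. The number of members whose groups did not overlap was 3 with median scaling and 8 to 13 when 1 array was left out, where fewer arrays make separation easier. The share over all probes was not computed under these settings, so these counts are not read as a result about the members. The members' median difference was 0.068 with plain blank subtraction, -0.020 with the local background, -0.060 with the authors' values, 0.024 with median scaling, and 0.032 to 0.061 when 1 array was left out. The local background column averaged 179 to 322 over probes on the 6 arrays, but only 57 to 63 over blanks. Its mean over probes was higher on every Cre array than on any control. For the genes listed next its share of the spot's own intensity was largest on Cre replicate 2, at 71.7% (Prdx1) to 106.6% (Srxn1). Values with this setting are therefore not read as estimates of a change, here or above. Signs turned with the local background for Gpx4 (-0.93), Gstm1 (-0.99), Gclc (-0.15), Gsr (-0.059), Prdx1 (0.057), Srxn1 (-0.91), Cyb5r1 (0.069), Cyb5r3 (-0.94), Cat (-0.023), Sod1 (-0.51), Sod2 (-0.017) and Nfe2l2 (-1.31). They turned with the authors' values for Gpx4 (-0.040), Gss (-0.089), Srxn1 (-0.14), Cyb5r3 (-0.13), Sod2 (-0.13) and Nfe2l2 (-0.048), where the median of all probes was -0.078, so that Gpx4 and Nfe2l2 stayed above it, and with median scaling for Srxn1 (-0.029), Cyb5r3 (-0.012) and Sod2 (-0.015). When 1 array was left out, differences that turned sign ranged from -0.022 to 0.23 for Gpx4, -0.13 to 0.016 for Prdx1, -0.069 to 0.18 for Cyb5r3, -0.42 to 0.025 for Gclm, -0.31 to 0.069 for Hmox1, -0.015 to 0.23 for Nqo1, -0.31 to 0.095 for Txnrd1, -0.35 to 0.060 for Keap1 and -0.038 to 0.15 for Sod2. The cause was not tested. The Chd7 difference stayed below 0, between -2.47 and -0.52. Dim members such as Gsta3 are limited by their small signal over the blank spots.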
